A study of Mus musculus with 4 samples.

Results

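Thyrotropes are the pituitary cells that make thyroid-stimulating hormone (TSH). In single-cell RNA-seq libraries of the mouse pituitary they were chosen by their hormone RNA, so those values are given only as a description. A barcode was a member when Tshb made up at least 1% of its unique molecular identifiers (UMIs, which count RNA molecules), with Gh below 15%, Prl below 5%, Pomc below 2% and Fshb below 0.5%. The rule gave 404 members among 27220 kept cells, where kept barcodes had 500 or more detected genes and no more than 20% of UMIs from mitochondrial genes. The CTRL 1 and CTRL 2 libraries gave 72 and 73 members, and HFD 1 and HFD 2 gave 140 and 119. All mice were wildtype C57BL/6J males. For 12 weeks they ate control food (CTRL) or high-fat food (HFD), and each diet had 2 libraries. Glands were dissociated with collagenase and trypsin and run on the 10x Genomics 3' v3.1 platform, which reads the 3' end of polyadenylated RNA. The number of glands and animals behind a library is not stated, so p-values measure only the spread between these libraries, which may be technical.

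TSH is a dimer of an alpha chain, encoded by Cga and shared with the gonadotropins, and a beta chain, encoded by Tshb, that gives the hormone its specificity. Its release is driven by hypothalamic thyrotropin-releasing hormone (TRH), which acts through the receptor Trhr and Gq signalling. Thyroid hormone, made in the thyroid under TSH, feeds back on the thyrotrope through the nuclear receptor Thrb and represses both subunit genes. The deiodinase Dio2 makes the active hormone inside the cell.

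The promoters of the 2 subunit genes are shown because their RNAs identify the cells, together with that of Pvalb, whose RNA differed between the diets below. Each window runs from 250 bases before to 50 bases after a RefSeq transcript start on GRCm38.p6, 5′ to 3′ on the strand of the gene. Capitals mark matches on either strand to 4 motifs. The GATA factor motif was searched as AGATAA. The nuclear receptor half-site was searched as AGGTCA. The TATA box was searched as TATAAA. The cAMP response element was searched as TGACGTCA. The first TATA box matches in Tshb, on opposite strands, overlap. The Tshb window is chr3:102782665-102782964, minus strand. The Cga window is chr4:34893529-34893828, plus strand. The Pvalb window, the first of its 2 RefSeq windows, is chr15:78206351-78206650, minus strand.
Tshb: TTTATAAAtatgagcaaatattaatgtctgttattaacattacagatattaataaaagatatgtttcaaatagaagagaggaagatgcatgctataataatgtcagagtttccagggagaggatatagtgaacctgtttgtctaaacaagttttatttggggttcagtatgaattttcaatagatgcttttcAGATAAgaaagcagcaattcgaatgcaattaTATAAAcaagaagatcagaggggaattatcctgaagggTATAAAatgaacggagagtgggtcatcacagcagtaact
Cga: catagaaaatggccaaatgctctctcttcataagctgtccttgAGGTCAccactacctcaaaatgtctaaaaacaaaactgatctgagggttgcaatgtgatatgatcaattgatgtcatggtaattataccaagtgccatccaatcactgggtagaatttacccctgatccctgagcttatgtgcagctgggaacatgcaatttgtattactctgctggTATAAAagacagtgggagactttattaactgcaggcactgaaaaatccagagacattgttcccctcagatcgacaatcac
Pvalb: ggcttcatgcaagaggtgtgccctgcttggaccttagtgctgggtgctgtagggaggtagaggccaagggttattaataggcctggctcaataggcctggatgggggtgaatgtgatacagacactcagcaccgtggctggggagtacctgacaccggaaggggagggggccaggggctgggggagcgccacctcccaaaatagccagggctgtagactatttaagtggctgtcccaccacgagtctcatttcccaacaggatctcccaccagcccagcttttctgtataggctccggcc
The Tshb window held AGATAA with its first base at -58 from the start and TATA box matches at -248, -27 and 12 on its own strand and at -250 on the other. The Cga window held the half-site at -207 and a TATA box match at -30, and the Pvalb window held none of the 4 motifs. Of 32851 mouse promoter windows of this length, 11.2% held the GATA motif, 16.3% the half-site, 13.6% the TATA box and 1.79% the cAMP response element.

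Many barcodes occurred in more than 1 library, which bears on the members. HFD 1 and HFD 2 shared 3116 barcodes, and CTRL 2 and HFD 1 shared 1423. Every other pair shared 14 to 22. The smaller total of a barcode shared by HFD 1 and HFD 2 was 5.58% of the larger one in the median, and in 3102 of the 3116 the smaller total was the one in HFD 1. A barcode whose total was under 20% of its total in another library was called a low copy. Low copies made up 81 of the 140 members of HFD 1 and 3 of the 73 of CTRL 2. Of the 81, 79 were also barcodes of HFD 2, and 78 of those were thyrotropes there. Over these 78 the Tshb share in HFD 1 followed that in HFD 2 (Spearman rho 0.97, a description across barcodes), with medians of 4.47% and 4.69%. The low copies held 9.67% of the member UMIs of HFD 1. Leaving them out gave 320 members, with 59 in HFD 1 and 70 in CTRL 2.

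**Figure D1:**
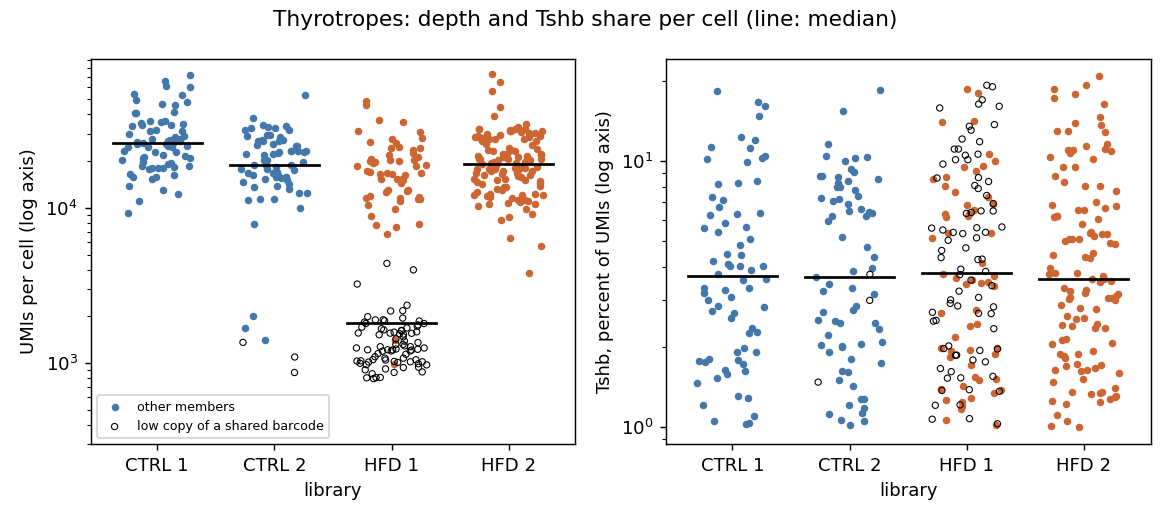
UMIs per cell (left, log axis) and Tshb as a percent of UMIs (right, log axis) for every thyrotrope, by library. Points are cells, open circles are low copies of shared barcodes, and lines are medians over all members; the HFD 1 median of 1817 UMIs lies among the open circles, while the Tshb medians are 3.61% to 3.79%.

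Most members outside the low copies were deeply sequenced, though the shallowest of them held 1414 UMIs in CTRL 2 and 981 in HFD 1. The median member held 25953.5 and 18855 UMIs in CTRL 1 and CTRL 2, against 1817 and 19085 in HFD 1 and HFD 2. Without low copies the HFD 1 median was 16692. Member UMIs summed to 2076717, 1454853, 1198311 and 2513653 in that order.

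The members carried the other thyrotrope markers, none of which the rule used. Levels below are CPM, a gene's summed UMIs divided by the total of its cell group in a library and scaled to 1e6. Trhr was at 123 and 111 CPM in CTRL 1 and CTRL 2, against 140 and 146 in HFD 1 and HFD 2, and had no UMI in the gonadotropes of any library. Dio2 was at 320, 283, 295 and 352 CPM. Cga was at 115280, 112490, 130381 and 120377 CPM. Tshb, which chose the cells, was at 59456, 56547, 56996 and 65277 CPM and is given as a description.

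**Figure D2:**
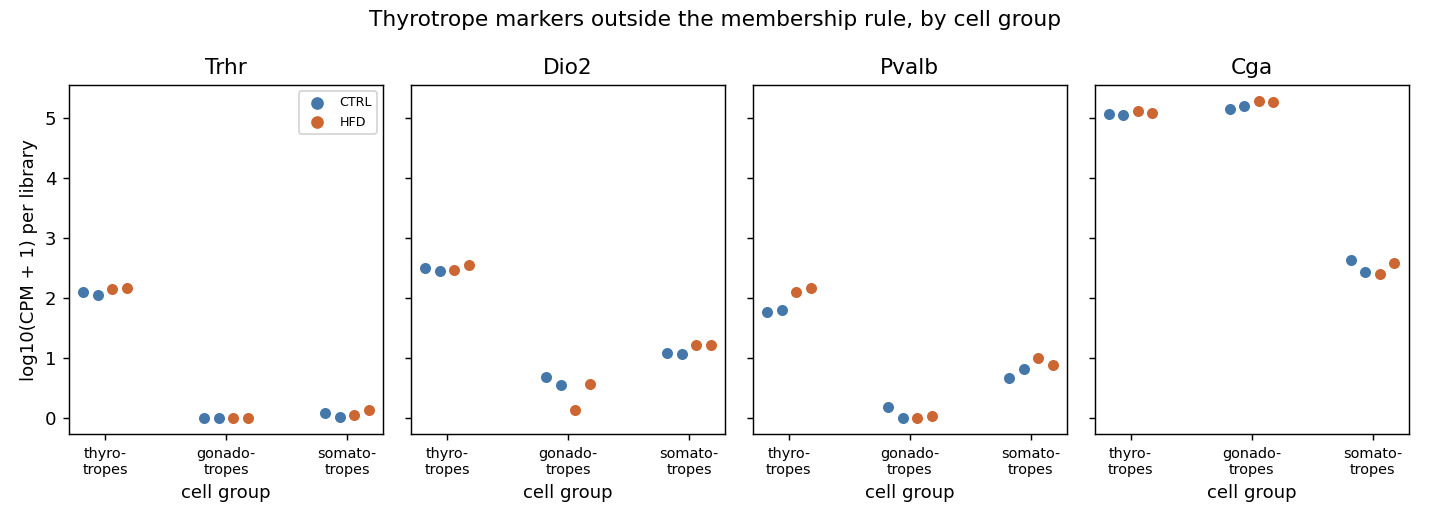
Levels of Trhr, Dio2, Pvalb and Cga as log10(CPM + 1) in thyrotropes, gonadotropes and somatotropes; each point is 1 library, coloured by diet. Trhr lies at 0 in all 4 gonadotrope sums, while Cga is high in both thyrotropes and gonadotropes.

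Members varied widely in Tshb. Its median share was 3.68%, 3.66%, 3.79% and 3.61% of UMIs in CTRL 1, CTRL 2, HFD 1 and HFD 2, and the highest member reached 20.9%. There were 62 members at 10% or more. The lowest member lay at 1.00% and the highest barcode outside, with the other gates met, at 0.962%. There were 15 members from 1% to below 1.1% and 10 barcodes from 0.9% to below 1%. Among members of at least 8000 UMIs that were no low copies, those richer in Tshb were also richer in Cga, with Spearman rho of 0.71 (n = 72 cells) in CTRL 1, 0.74 (n = 66) in CTRL 2, 0.63 (n = 53) in HFD 1 and 0.71 (n = 116) in HFD 2. Tshb and Cga share each cell's total, and Tshb share also rose with depth (rho 0.34 to 0.61). These are descriptions across cells.

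Other cell groups held little Tshb. It made up 0.00218% to 0.00617% of the UMIs of gonadotropes and 0.00208% to 0.00633% of those of somatotropes. The part of free RNA in these shares was not tested. Lymphocyte markers had no UMI in members (4 of 4 genes). The 3 markers of pars tuberalis thyrotropes, a distinct thyrotrope population at the top of the gland, summed to 556, 219, 209 and 27.1 CPM, and 1 of the 3 had no UMI. Summed levels of 4 red cell markers were 35.2, 26.1, 6004 and 1963 CPM, those of 5 macrophage markers 5.78, 6.19, 184 and 54.1 CPM, and those of 5 endothelial markers 60.7, 56.4, 2.50 and 16.3 CPM.

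The share of thyrotropes among kept cells was 1.60% and 0.995% in CTRL 1 and CTRL 2, against 1.75% and 1.62% in HFD 1 and HFD 2. Their exact binomial 95% intervals were 1.25% to 2.00%, 0.781% to 1.25%, 1.47% to 2.06% and 1.34% to 1.93%, for counting error alone. Both HFD libraries lay above both CTRL libraries, by 0.38 on the log2 scale, and the exact two-sided permutation test gave p = 0.333, the smallest that 2 libraries against 2 allow. Without low copies the shares were 1.60%, 0.966%, 0.955% and 1.62%. The diets then overlapped, and the log2 difference was 0.01 (exact permutation p = 1).

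Diet was tested on UMIs summed per library over the members, with edgeR's quasi-likelihood test and Benjamini-Hochberg adjustment over all genes tested. Among 9865 genes, 61 passed at an adjusted p under 0.05 (0.618%), 39 higher in HFD (0.395%) and 22 lower (0.223%). The median log2 difference over all genes tested was 0.00. At an unadjusted p under 0.05 there were 779 genes. Without low copies 32 of 9814 genes passed (0.326%), 24 higher (0.245%) and 8 lower (0.0815%).

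Most of the large differences sat in single cells. In 29 of the 61 genes, 1 member held 50% or more of the UMIs in both libraries of the diet in which the gene was higher, and 23 of these were higher in HFD. In 17 of the 61 the top member held under 20% in both of those libraries. The hemoglobin genes of red blood cells show the concentration in 1 member. Hbb-bs was at 23.1 and 16.5 CPM in CTRL 1 and CTRL 2 and at 3587 and 1028 CPM in HFD 1 and HFD 2. A single member held 96.2% of its UMIs in HFD 1 and 96.4% in HFD 2. Of all red cell marker UMIs in members, 1 cell held 6905 of 7195 in HFD 1 and 4794 of 4934 in HFD 2. The macrophage markers behaved alike, with 210 of 221 UMIs in 1 member of HFD 1 and 130 of 136 in 1 of HFD 2. C1qa, a complement subunit of macrophages, was at 0.963, 1.37, 71.8 and 16.7 CPM over CTRL 1, CTRL 2, HFD 1 and HFD 2. Endothelial markers had 126 and 82 UMIs in CTRL 1 and CTRL 2, against 3 and 41 in HFD 1 and HFD 2. A single member held 62.7%, 97.6%, 100% and 92.7% of them in that order. Fabp4, a fatty acid carrier of capillary endothelium, was at 23.1, 32.3, 0.835 and 2.39 CPM.

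**Figure D3:**
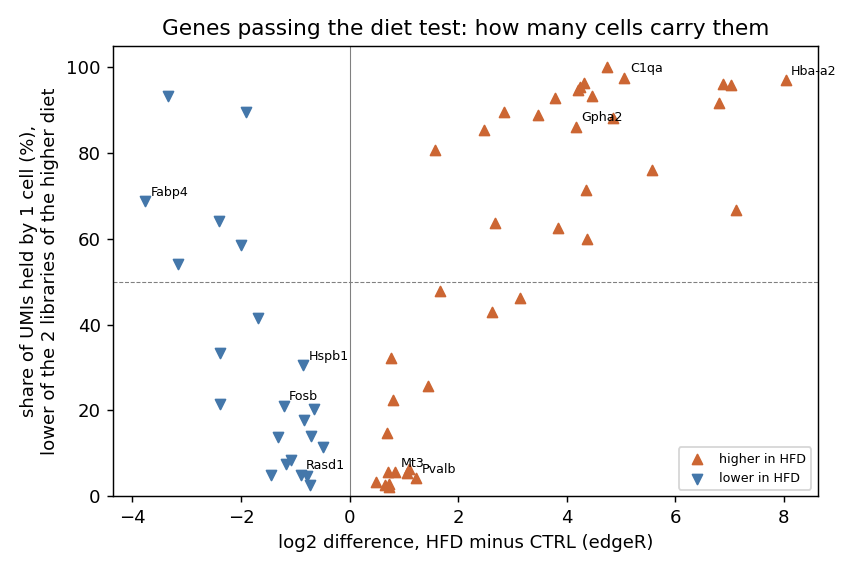
Each of the 61 genes passing the diet test, by log2 difference HFD minus CTRL (horizontal) and by the share of its UMIs held by 1 cell (vertical, in percent), taken as the lower of the 2 libraries of the diet where the gene is higher. Genes above the dashed line at 50% number 29, and Pvalb, Mt3 and Rasd1 lie near the bottom.

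Members with 5 or more UMIs of red cell, macrophage or endothelial markers numbered 2, 1, 4 and 2 in CTRL 1, CTRL 2, HFD 1 and HFD 2. Leaving out these members left 10 of 9745 genes passing (0.103%), 7 higher (0.0718%) and 3 lower (0.0308%). Without putative doublets 11 of 9661 genes passed. Leaving out low copies and marker-bearing members left 313 members and 11 of 9782 genes (0.112%), 7 higher (0.0716%) and 4 lower (0.0409%). A total of 10 of the original 61 passed with all members, without copies, without the marker-bearing members, and without both. They were Pvalb, Mt3, AY036118, Rasd1, Stmn1, Cryab, Gpha2, Gadd45g and Txnip, beside Prl. Prl is a gene of the membership rule, so its place in these counts is no result, and it is described only by its values. It was at 1358, 1556, 361 and 507 CPM, and 1 member held 41.6% of its UMIs in CTRL 1 and 62.1% in CTRL 2. In gonadotropes, which do not make it, Prl took 0.228%, 0.109%, 0.107% and 0.0256% of UMIs in the same order. AY036118 was at 429, 459, 244 and 166 CPM. Cryab and Gpha2 also rested on few cells. A single member held 85.5% of the Cryab UMIs in HFD 1 and 92.1% in HFD 2, and the corresponding Gpha2 values were 100% and 86.2%. Without putative doublets the log2 difference of Cryab was -0.66 (adjusted p = 0.92) against 2.47 before.

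Pvalb, which encodes the calcium buffer parvalbumin, was higher in HFD across many members. It lay at 58.3 and 62.5 CPM in CTRL 1 and CTRL 2, against 124 and 144 in HFD 1 and HFD 2. Both HFD libraries lay above both CTRL libraries. The log2 difference was 1.22 (SE 0.13, edgeR adjusted p = 7.27e-05), and 1.17 (adjusted p = 0.00673) without copies and marker-bearing members. The gene lies on chromosome 15 from 78191114 to 78206400 (mm10, GENCODE vM21). The top member held 4.14% to 9.40% of its HFD UMIs. Members of at least 8000 UMIs that were no low copies were thinned to 8000 UMIs each. They numbered 72, 66, 53 and 116 in CTRL 1, CTRL 2, HFD 1 and HFD 2. A Pvalb UMI was then found in 34.7% and 31.8% of them in CTRL 1 and CTRL 2, against 52.8% and 59.5% in HFD 1 and HFD 2. At far lower levels Pvalb was also higher in both HFD libraries in somatotropes, at 3.66, 5.66, 9.25 and 6.64 CPM in that order. Over all kept cells outside the members it was at 2.24, 2.89, 4.87 and 3.77 CPM. The part of free RNA in these levels was not tested. None of the 4 thyrotrope markers other than Tshb passed edgeR's test for a diet effect differing from that in somatotropes.

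Mt3, a metallothionein that binds zinc and copper, was at 326.0, 325.8, 545 and 578 CPM over CTRL 1, CTRL 2, HFD 1 and HFD 2. The diets did not overlap, and the log2 difference was 0.84 (SE 0.11, edgeR adjusted p = 0.000363). Stmn1, which destabilises microtubules, was at 627, 525, 913 and 938 CPM, again without overlap. Its log2 difference was 0.73 (SE 0.11, adjusted p = 0.00191). Txnip, which binds thioredoxin and responds to glucose, was at 103, 120, 154 and 186 CPM and was higher by 0.69 (SE 0.13, adjusted p = 0.0173). It missed the threshold without putative doublets (log2 0.48, adjusted p = 0.608), without CTRL 1 (0.59, 0.189), without HFD 2 (0.55, 0.127) and by DESeq2 (0.68, 0.233). Pvalb, Mt3 and Stmn1 passed in each of these fits and by DESeq2. Members of at least 2000 UMIs were also thinned to 2000 each, which left 63 of the 140 HFD 1 members. Of the 2099 genes that could then be tested, Stmn1 passed (edgeR adjusted p = 0.0409). Pvalb (log2 1.42, adjusted p = 0.196) and Mt3 (log2 0.61, adjusted p = 0.38) did not.

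Rasd1, a Ras-related protein induced by glucocorticoids (chromosome 11, 59963181 to 59964944), fell in HFD. It was at 264 and 315 CPM in CTRL 1 and CTRL 2, against 147 and 151 in HFD 1 and HFD 2, a fall of 0.90 on the log2 scale (SE 0.12, edgeR adjusted p = 0.00103). It was lower in both HFD libraries than in both CTRL libraries, and passed by DESeq2, without putative doublets and without any 1 library. With cells thinned to 2000 UMIs its log2 difference was -0.79 (adjusted p = 0.456). It was the 1 gene of 8 measured glucocorticoid targets that passed, against 0.618% of all genes. The list's median log2 difference was -0.05. Rasd1 was also lower under HFD in somatotropes, at 133, 132, 58.9 and 44.8 CPM over CTRL 1, CTRL 2, HFD 1 and HFD 2.

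**Figure D4:**
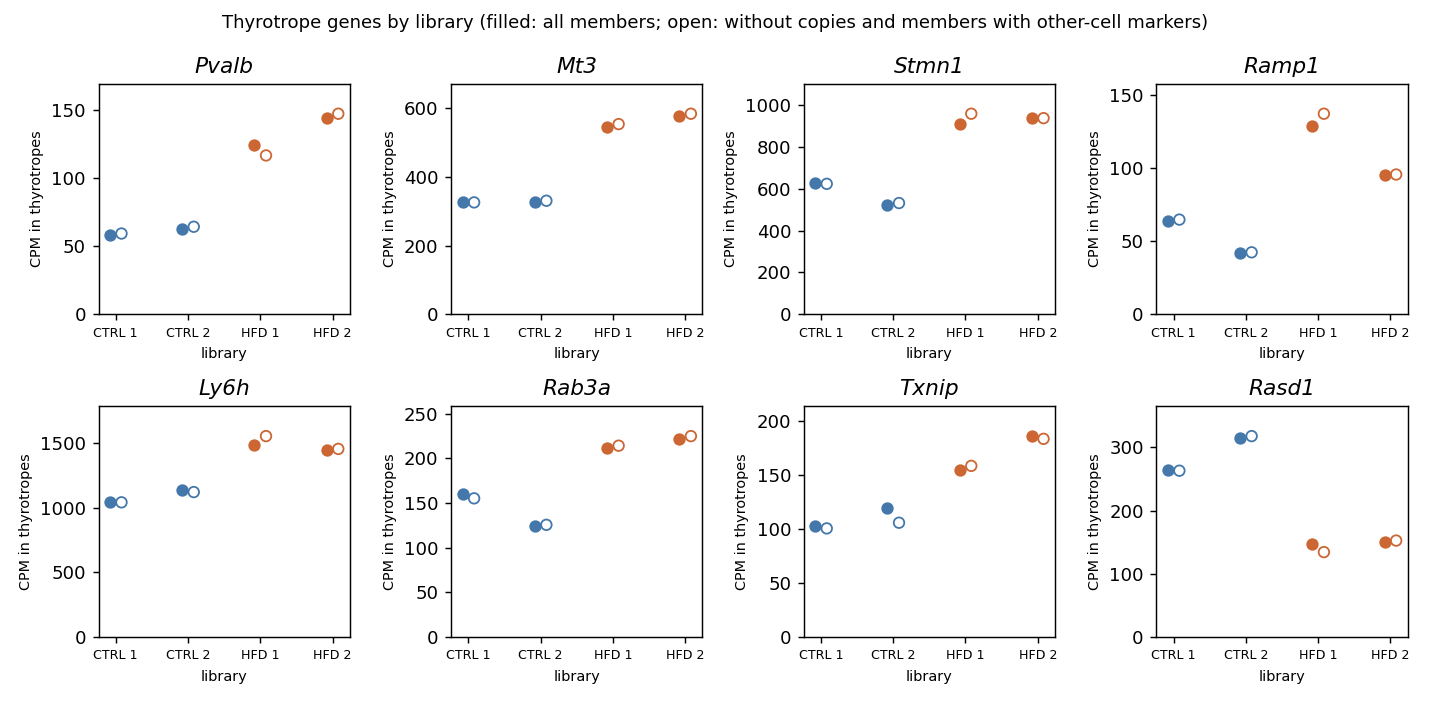
Levels (CPM, axes from 0) of 8 genes in the thyrotropes of each library; filled points are all members and open points are members left after low copies and marker-bearing members were removed. In the first 7 panels both HFD libraries lie above both CTRL libraries, and for Rasd1 both lie below.

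Ramp1, an accessory protein of calcitonin-family receptors, was at 64.0, 41.9, 129 and 95.1 CPM, and rose by 1.05 (edgeR adjusted p = 0.0096). Ly6h was at 1042, 1134, 1483 and 1448 CPM and rose by 0.48 (adjusted p = 0.0193). Rab3a, a small GTPase of secretory vesicles, was at 160, 124, 212 and 222 CPM and rose by 0.65 (adjusted p = 0.0234). All 3 fell short of the threshold without copies and marker-bearing members, at adjusted p values of 0.0727, 0.0679 and 0.0827, with log2 differences of 1.08, 0.52 and 0.69. Ly6h also missed it without CTRL 1 (adjusted p = 0.279) and Rab3a without CTRL 2 (adjusted p = 0.236).

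Of the 4 thyrotrope markers other than Tshb, 1 (Pvalb) passed, against 0.618% of all genes tested. The log2 difference was 0.19 for Cga (SE 0.06, edgeR adjusted p = 0.257), 0.34 for Trhr (SE 0.12, adjusted p = 0.489) and 0.16 for Dio2 (adjusted p = 0.814), none of which passed. None of the 14 measured genes of thyroid hormone feedback passed, with a median log2 difference of -0.02. Thrb lay at 91.5, 93.5, 99.3 and 84.3 CPM and Rxrg, its retinoid partner, at 68.9, 77.0, 76.8 and 98.7 CPM. None of 14 genes of TRH receptor signalling passed (median 0.05), and none of 13 lineage transcription factors (median -0.07). Pou1f1, the lineage factor of thyrotropes, was at 371, 461, 396 and 367 CPM. Gata2, which acts with it on Tshb, was at 65.5, 66.7, 64.3 and 78.0 CPM.

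The secretory machinery gave 1 call, Rab3a, among 15 genes of exocytosis and calcium entry (median 0.10), against 0.618% of all genes, and none after copies and marker-bearing members were left out. The 12 granule and prohormone genes gave none (median -0.04), and the 11 genes of TSH glycosylation and folding gave none (median -0.07). None of 22 sterol and fatty acid synthesis genes passed. Their median was -0.22, and 19 of the 22 had negative log2 differences. In 10 of the 22 both HFD libraries lay below both CTRL libraries, and 24.1% of all genes tested did so, while 14.2% lay above. The largest in size was Scd1, a fatty acid desaturase, with 14.4, 19.2, 5.01 and 9.15 CPM and an adjusted p of 0.443.

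Immediate-early genes respond quickly to stimuli, tissue dissociation included. Of those measured, 26 had negative log2 differences. Of 29, 3 were lower (Fosb, Egr1 and Gadd45b) and 1 higher (Gadd45g), against 0.223% and 0.395% of all genes, with a median log2 difference of -0.56. Both HFD libraries lay below both CTRL libraries in 14 of the 29, against 24.1% of all genes. Fosb, an AP-1 subunit, was at 68.4, 52.2, 22.5 and 27.1 CPM (log2 -1.21, SE 0.20, edgeR adjusted p = 0.00565). Egr1, a zinc finger factor, was at 320.2, 317.6, 126 and 210.5 CPM (log2 -0.83, adjusted p = 0.0193). Gadd45b, a stress-induced growth arrest protein, was at 93.9, 77.0, 16.7 and 43.0 CPM (log2 -1.32, adjusted p = 0.0101), whereas its relative Gadd45g was at 76.1, 92.8, 126 and 145 CPM (log2 0.76, adjusted p = 0.0101). Without copies and marker-bearing members, the median of the 27 genes then measured was -0.19, no gene was called lower and Gadd45g was the 1 called. The count without overlap and lower was then 6, against 22.5% of all genes lower and 14.6% higher. Fosb then had a log2 difference of -0.87 (adjusted p = 0.632), Egr1 of -0.72 (0.412) and Gadd45b of -1.63 (0.0682). Without putative doublets Gadd45b passed (log2 -1.66, adjusted p = 0.0188). In Gadd45g 1 member held 39.7% of its UMIs in HFD 1 and 32.3% in HFD 2, and without putative doublets its log2 difference was 0.79 (adjusted p = 0.469). It also missed the threshold without CTRL 1 (log2 0.62, adjusted p = 0.156), without HFD 2 (0.65, 0.0533) and by DESeq2 (0.75, 0.233). The part of dissociation in these differences was not tested.

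**Figure D5:**
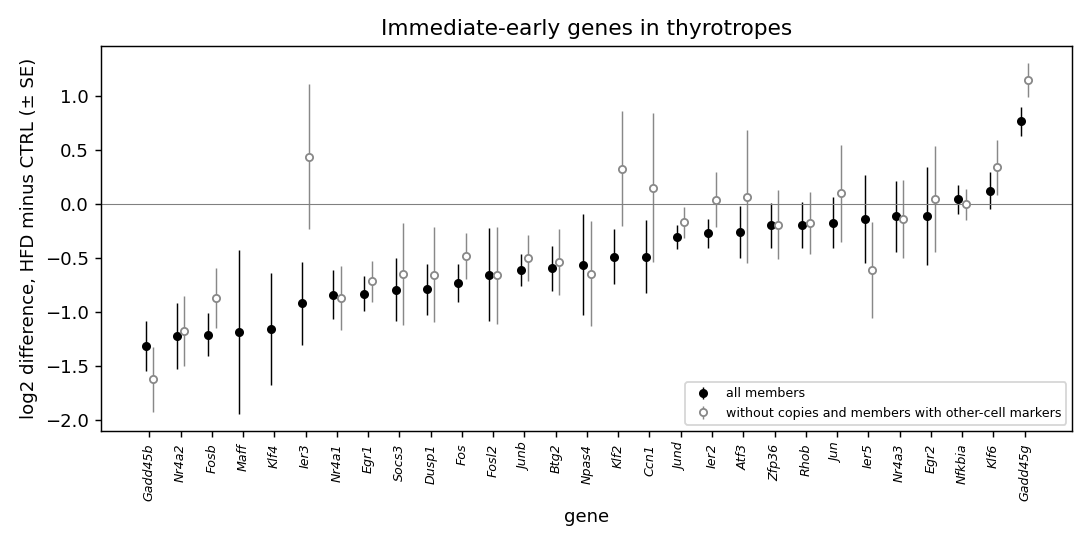
Log2 difference HFD minus CTRL (± SE) of the 29 measured immediate-early genes in thyrotropes, ordered by value; black points are all members, and open points leave out low copies and marker-bearing members. Most black points lie below 0, with a median of -0.56, while the open points have a median of -0.19.

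Of 14 heat shock proteins 2 were lower, against 0.223% of all genes, and none was after copies and marker-bearing members were left out. They were Hspb1 (404, 253, 154 and 196 CPM) and Dnajb1 (184, 166, 91.0 and 119 CPM). A single member held 30.6% of the Hspb1 UMIs in CTRL 1 and 89.7% in CTRL 2, and without copies and marker-bearing members its log2 difference was -0.07 (edgeR adjusted p = 0.998) against -0.85 before. That of Dnajb1 was then -0.45 (adjusted p = 0.726) against -0.66 before, and its diets overlapped. Of 14 insulin and leptin signalling genes, Igfbp5 was higher (log2 0.79, adjusted p = 0.0112) and Igfbp3 lower (log2 -1.90, adjusted p = 0.0253), against 0.395% and 0.223% of all genes, and 1 member held 89.6% to 96.9% of the Igfbp3 UMIs in CTRL. Igfbp5 missed the threshold without CTRL 2 (log2 0.55, adjusted p = 0.0747), without low copies (0.81, 0.0518), without copies and marker-bearing members (0.86, 0.0909), without putative doublets (0.54, 0.175) and by DESeq2 (0.80, 1.00). Igfbp3 was too low to be tested after copies and marker-bearing members were left out. Clock genes, fatty acid oxidation, the mitochondrial genome, the unfolded protein response, hypothalamic receptors and interferon response gave no call.

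Thyrotropes were then compared with gonadotropes, which share Cga with them, and somatotropes, which share the Pou1f1 lineage. The same edgeR test was used with library as a block and the 5 genes of the rule left out. Against the 1313 gonadotropes, 5284 of 11847 genes differed (44.6%), 2573 higher in thyrotropes (21.7%) and 2711 lower (22.9%). Many of these gonadotropes were low copies. Without low copies their number went from 572 to 176 in HFD 1 and from 204 to 187 in CTRL 2. Against the 8490 somatotropes 7123 of 13729 differed (51.9%), 3429 higher (25.0%) and 3694 lower (26.9%). Pou1f1 averaged 399 CPM in thyrotropes and 11.5 in gonadotropes (log2 5.22, SE 0.11, adjusted p = 1.08e-12). Thrb averaged 92.2 against 8.34 CPM (log2 3.60, adjusted p = 7.05e-11) and Rxrg 80.3 against 1.52. The phospholipase Plcb1, which acts downstream of Gq, averaged 98.6 against 12.4 CPM in gonadotropes and 19.4 in somatotropes. Its list did not share this direction against gonadotropes. Of 17 TRH receptor signalling genes, 5 were higher and 10 lower in thyrotropes than in gonadotropes. Their median log2 was -0.70, against -0.01 over all genes tested. Against somatotropes 7 of the 17 were higher and 4 lower (median 0.07, against -0.05). Of 22 sterol and fatty acid synthesis genes, 17 were higher and 1 lower in thyrotropes than in gonadotropes (median log2 1.31, against -0.01 over all genes tested). Against somatotropes 7 were higher and 1 lower (median 0.13, against -0.05).

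Levels of granule proteins were compared between the 3 cell groups. Chgb, the granin chromogranin B, averaged 32288 CPM in thyrotropes, 2115 in gonadotropes and 660.4 in somatotropes. Chga averaged 1339.6, 4410.2 and 79.8 CPM and Scg2 2992, 17398 and 231 CPM in the same order. Of 13 granule and prohormone genes, 12 were higher and 1 lower in thyrotropes than in somatotropes, where 25.0% of all genes were higher and 26.9% lower (median log2 1.87, against -0.05 over all genes). Against gonadotropes 4 were higher and 6 lower, where 21.7% and 22.9% of all genes were (median -0.30, against -0.01). Cck averaged 252 CPM in thyrotropes, but 1 member held 100% and 48.9% of its UMIs in CTRL 1 and CTRL 2, and 98.8% and 60.3% in HFD 1 and HFD 2. Cck is also among the 3 pars tuberalis markers above.

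Whether diet acted differently in thyrotropes was tested as an interaction. Against gonadotropes 33 of 12650 genes passed (0.261%), with 26 more positive in thyrotropes (0.206%) and 7 more negative (0.0553%). Low copies were kept in both cell groups. Without HFD 2 the count was 139 and without CTRL 2 it was 16. Against somatotropes 115 of 14527 passed (0.792%), 96 more positive (0.661%) and 19 more negative (0.131%), and 180 without HFD 2. Cga averaged 113885 CPM in CTRL and 125379 in HFD in thyrotropes, and 148386 and 187934 in gonadotropes, a smaller difference in thyrotropes by 0.30 on the log2 scale (SE 0.04, edgeR adjusted p = 0.0019). Igfbp5 went from 334 to 563 CPM in thyrotropes and from 326 to 250 in gonadotropes (interaction log2 1.04, edgeR adjusted p = 0.0187). The top thyrotrope held 28.7%, 8.10%, 33.9% and 22.4% of the Igfbp5 UMIs over CTRL 1, CTRL 2, HFD 1 and HFD 2. Neither interaction was tested without putative doublets or without marker-bearing members. Against somatotropes, 7 of 34 immediate-early genes passed, all with a less negative or more positive diet effect in thyrotropes. Nr4a1 went from 52.1 to 28.5 CPM in thyrotropes and from 163 to 30.6 in somatotropes (interaction log2 1.61, SE 0.24).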

How the data were processed

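The authors deposited raw UMI counts, whole numbers for 32285 genes in each barcode, without normalization. Cell Ranger 6.1.2, Seurat 4.3 and mm10 are named, without roles, per the submitters' processing notes. Neither the annotation nor the strand setting is given in the sources used here, so overlapping genes and near-identical copies such as the hemoglobins are uncertain. Members and gene lists were chosen with earlier results of these data known. Counts were summed per library over members, gonadotropes (Fshb at 0.5% or more) and somatotropes (Gh at 15% or more), each below the thresholds of the other hormones, and tested with edgeR 4.0.16 (R 4.3.3), with TMM scaling, filterByExpr and Benjamini-Hochberg adjustment at 0.05. Members holding 5 or more UMIs of red cell, macrophage or endothelial markers were left out as an alternative chosen after seeing the data, as were low copies. Putative doublets were kept; as an alternative the highest Scrublet scores (scanpy 1.11.5) were removed at 0.8% per 1000 cells. All measured thyrotrope markers, TSH subunits and feedback genes could be named, and of the feedback genes only some are. So could passing genes of the other lists, or up to 4 of largest change where none passed. Beside these the rule took up to 12 passing genes per direction with at least 20 CPM and no overlap between diets. Their level was 25% or more of that in other cells. Of each comparison with another cell group the rule took 8 genes per direction of at least 50 CPM, and of each interaction passing list genes and the 5 of smallest p. AY036118, Prl, Gpha2, Stmn1, Txnip, Ly6h, Fabp4, Pou1f1, Gata2, Plcb1, Chgb, Chga and Scg2 lie outside the rule in at least 1 place and were chosen after their values were seen. Other alternatives were DESeq2 1.42.0, other scaling and filters, thinning to 2000 UMIs, deeper cells, Tshb at 2% or more and leaving out each library. The interaction result of 1 gene is not reported here. Scripts were tested on simulated data.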

Additional observations from a re-analysis of the deposited data

Results flagged for a closer look

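The diet effect differed between thyrotropes and another cell group for the genes below, by edgeR's test of the interaction with Benjamini-Hochberg adjustment at 0.05. Values are log2 differences of the diet effect, thyrotropes minus the other group. Such a value can come from a change in the other group alone. Against gonadotropes they were 9.79 for Ccl4, 6.70 for C1qa, 5.52 for Ctss, 3.55 for Lcn2, 1.73 for Gadd45g, 1.04 for Igfbp5, 0.86 for Klf6, 0.60 for Dnaja1, -0.51 for Scg2 and -0.30 for Cga. In the thyrotropes of both HFD libraries 1 member held over 50% of the UMIs of Ccl4, C1qa, Ctss and Lcn2. Without low copies the value of Dnaja1 was 0.58 (adjusted p = 0.0618).

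Against somatotropes the hemoglobins gave 4.96 for Hbb-bs, 5.17 for Hba-a1, 6.22 for Hba-a2 and 4.05 for Hbb-bt, again carried by 1 member in each HFD library. Prss28 gave 3.09, with a mean of 178 CPM in thyrotropes against 1.26 in somatotropes. In thyrotropes its diets overlapped, at 179, 122, 135 and 278 CPM over CTRL 1, CTRL 2, HFD 1 and HFD 2. In somatotropes it was at low levels of 2.00, 2.28, 0.181 and 0.580 CPM. A single thyrotrope held 47.0% of the Prss28 UMIs in HFD 2. Immediate-early genes gave 1.69 for Egr2, 1.61 for Nr4a1, 1.13 for Dusp1, 1.04 for Atf3, 0.96 for Gadd45g, 0.96 for Ccn1 and 0.81 for Btg2. Without low copies Ccn1 gave 0.88 (edgeR adjusted p = 0.119). Egr2 was at low levels in thyrotropes, with 6.26, 8.25, 4.17 and 7.56 CPM, against 41.1, 103, 15.1 and 24.0 in somatotropes. For Egr2, Atf3, Ccn1 and Btg2 the diets overlapped in thyrotropes, while in somatotropes both HFD libraries lay below both CTRL libraries. Of 34 immediate-early genes, 22 were lower and 2 higher in thyrotropes than in somatotropes, where 26.9% and 25.0% of all genes were. Heat shock and folding genes gave 0.90 for Hsp90aa1, 0.72 for Hspe1, 0.70 for Hspa8, 0.66 for Dnajb9 and 0.56 for Dnaja1. For Hsp90aa1, Dnajb9 and Dnaja1 the diets overlapped in thyrotropes, while in somatotropes both HFD libraries lay below both CTRL libraries. Hsp90aa1 averaged 676 CPM in CTRL and 658 in HFD in thyrotropes, against 1289 and 738 in somatotropes. Hspe1 and Hspa8 were higher in both HFD libraries in thyrotropes. Further values were 1.62 for Rgs2, 1.25 for Igfbp5, 0.74 for Insig1, 0.65 for Rab3a and 0.62 for Rasd1. Rgs2 averaged 56.9 CPM in CTRL and 60.0 in HFD in thyrotropes, against 44.3 and 17.0 in somatotropes. Rasd1 was lower under HFD in both groups, from 290 to 149 CPM in thyrotropes and from 132 to 51.8 in somatotropes. Negative values were -0.71 for Nr3c1, -0.97 for Pcsk2, -1.88 for Ghrhr and -2.56 for Igfbp3. Nr3c1 gave -0.67 without low copies (edgeR adjusted p = 0.0703). Ghrhr, a somatotrope marker, was at 16.9, 6.87, 5.84 and 2.39 CPM in thyrotropes, against 76.1 to 101 in somatotropes. The part of free RNA in its thyrotrope levels was not tested. A single thyrotrope held 89.6% of the Igfbp3 UMIs in CTRL 1 and 96.9% in CTRL 2.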

How the results depend on the processing

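The count of 61 genes passing the diet test was 171 with no filter on low counts, 19 with DESeq2 and 36 with Tshb required at 2% or more. Without low copies 32 passed. Thinning members of at least 2000 UMIs to 2000 each, and dropping the others, gave 10 (2099 genes tested). The count was 11 without putative doublets and 35 with members of at least 5000 UMIs. It was 10 without members holding other-cell markers, and 11 without these and low copies. With 1 library left out it ranged from 71 to 130. It was 130 without CTRL 2 and 123 without HFD 2. With the replicate number as a block it was 51. The labels do not say that the numbers pair the libraries. Deviations of same-numbered libraries from the diet means correlated at r = -0.022 over 9865 genes. With 2 libraries per diet that value cannot decide whether libraries were paired. Counts against gonadotropes ranged from 4319 to 4861 and against somatotropes from 5753 to 6781 with 1 library left out. The interaction count with gonadotropes was 172 with no filter, 91 with Tshb at 2% or more, and from 16 (without CTRL 2) to 139 (without HFD 2) with 1 library left out; it was 62 without CTRL 1. That with somatotropes was 177 with Tshb at 2% or more and 77 to 180 with 1 library left out, the highest without HFD 2. The share difference on the log2 scale ranged from 0.08 to 0.76 with 1 library left out and was 0.01 without low copies. Where 1 library was left, it was assumed to vary like the other diet. Signs changed with Tshb at 2% or more for Hspb1 (0.22), Dnajb1 (0.15), Thrb (-0.068) and Gata2 (-0.13), without putative doublets for Cryab (-0.66), with thinning for Trhr (-0.015) and Thrb (-0.066), and with no scaling for Thrb (-0.032). With 1 library left out Thrb ranged from -0.076 to 0.16 and Pou1f1 from -0.21 to 0.090. Thrb, Trhr, Gata2 and Pou1f1 had not passed before. The cause of each change was not tested. Thinning, which also left out members below 2000 UMIs, ended the calls of Pvalb, Mt3 and Rasd1 at edgeR adjusted p values of 0.196, 0.38 and 0.456. Depth limits genes of low level in HFD 1, which had the fewest member UMIs.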
